A study of Mus musculus with 15 samples.

Results

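The resident macrophage genes described here are 10 of the 55416 genes measured: C1qa, C1qb, C1qc, Mrc1, Cd163, Lyve1, Folr2, F13a1, Pf4 and Pltp. They are known markers of macrophages that live in healthy tissue, and they were picked because their expected counts rose in anti-PD-L1 over IgG. That rise is therefore a description and not a result, as is every comparison that uses the IgG or the anti-PD-L1 libraries. Anti-CD8a against control compares neither group, and it is the comparison that was tested, although the fit took the spread between replicates from all 15 libraries.

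RNA was sequenced from a shin muscle, the tibialis anterior, of male C57BL/6 (C57BL/6NCrlOri) mice aged 6 to 8 weeks, in 15 libraries. The study looks for targets against muscle wasting in cancer and against muscle side effects of immunotherapy. The 5 control libraries came from mice without tumour, for which the labels name no antibody. In the other 3 groups KrasIKKaL cells, a single tumour cell line, had been injected into the trachea. The 4 IgG libraries came from tumour-bearing mice given an isotype antibody (rat IgG2b, clone LTF-2), whose dose is not stated. The 3 anti-PD-L1 libraries came from tumour-bearing mice given clone 10F.9G2 at 200 µg/kg, an antibody that blocks the checkpoint ligand PD-L1. The 3 anti-CD8a libraries came from tumour-bearing mice given clone 2.43 at 200 µg, an antibody against the coreceptor of cytotoxic T cells. Both of these antibodies were injected into the abdomen 3 times a week. Control differs from the other groups in tumour and in antibody together, which cannot be told apart.

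Resident macrophages sit in the connective tissue of muscle, along vessels and nerves, where they clear debris, take up proteins and haemoglobin, and supply complement. They depend on the receptor CSF1R, and many express the mannose receptor, CD163, LYVE1 and folate receptor beta. When muscle is injured, monocytes from blood enter and form other macrophages, which carry general macrophage genes but fewer of these markers. In bulk muscle RNA, fewer such cells and less RNA per cell cannot be told apart.

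The sequence at the members' starts was searched for motifs of macrophage factors. RefSeq promoter windows (GRCm38.p6, 250 bases before to 50 after the annotated start) matched 8 of the 10 members with 10 windows, and none was matched for C1qa and Lyve1. The search covered 5 motifs on both strands. The letters GAGGAA, the core of sites for the macrophage factor PU.1, stood in windows of 6 members (C1qb, C1qc, F13a1, Mrc1, Pf4 and Pltp), and in 28.3% of all 32817 windows. The longer GAGGAAGT, which contains GAGGAA, stood in windows of 3 members, C1qc, F13a1 and Pf4, and in 3.20% of all windows. TGCTGA, part of the site of MAF factors, stood in windows of C1qb and Folr2 and in 19.5% of all windows. TATAAA stood in that of Pltp (13.6% of all windows), and CACGTG in 0 of the members' windows (7.15% of all windows). The window of Cd163 held 0 of the 5 motifs, so that none was common to all members. C1qb, C1qc and C1qa lie side by side with no other RefSeq gene between them. The following 4 windows are shown because they hold GAGGAAGT or, for C1qb, both shorter motifs. Each is written 5′ to 3′ along the gene, with GAGGAA and TGCTGA, or their reverse complements TTCCTC and TCAGCA, in capitals.
C1qb promoter, chr4:136886151-136886450, minus strand: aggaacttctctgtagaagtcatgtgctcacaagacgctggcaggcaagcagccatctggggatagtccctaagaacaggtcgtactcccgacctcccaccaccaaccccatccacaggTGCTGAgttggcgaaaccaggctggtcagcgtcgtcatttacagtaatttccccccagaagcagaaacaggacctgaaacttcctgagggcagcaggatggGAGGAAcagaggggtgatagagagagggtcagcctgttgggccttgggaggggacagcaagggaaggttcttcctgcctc
C1qc promoter, chr4:136892865-136893164, minus strand: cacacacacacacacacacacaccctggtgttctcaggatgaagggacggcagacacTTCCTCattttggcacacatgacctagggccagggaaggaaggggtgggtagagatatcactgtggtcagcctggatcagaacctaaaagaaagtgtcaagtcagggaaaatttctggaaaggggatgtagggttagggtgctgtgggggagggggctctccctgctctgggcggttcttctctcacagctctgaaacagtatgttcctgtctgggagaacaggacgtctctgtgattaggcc
F13a1 promoter, chr13:37049164-37049463, minus strand: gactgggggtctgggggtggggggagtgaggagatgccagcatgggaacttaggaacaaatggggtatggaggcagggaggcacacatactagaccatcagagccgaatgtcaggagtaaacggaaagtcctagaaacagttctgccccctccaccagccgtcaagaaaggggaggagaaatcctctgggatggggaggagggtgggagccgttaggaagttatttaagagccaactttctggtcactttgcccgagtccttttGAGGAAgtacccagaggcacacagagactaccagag
Pf4 promoter, chr5:90772185-90772484, plus strand: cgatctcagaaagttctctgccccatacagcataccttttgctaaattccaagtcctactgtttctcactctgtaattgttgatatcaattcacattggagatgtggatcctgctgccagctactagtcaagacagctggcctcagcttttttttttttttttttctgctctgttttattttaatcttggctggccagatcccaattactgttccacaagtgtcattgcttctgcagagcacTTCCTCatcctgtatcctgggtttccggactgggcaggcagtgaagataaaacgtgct
The match closest to the start was that of Pf4, at position -8, on the strand opposite to the gene. In C1qb, GAGGAA stood at -30 and TGCTGA at -131, both on the strand of the gene. In F13a1 the match lay at 15, behind the start, and in C1qc at -193. Positions give the leftmost base of the match as printed, with the annotated start as base 1. A match is a string of letters, and binding was not measured.

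Levels below are TMM-normalised CPM, counts per library put on a shared scale, given in the order of replicate numbers. Library totals were 15894804 to 22459348 expected counts, and all 10 members passed the filter on low counts. Muscle fibre genes summed to 77492 to 147527 CPM in a library, against 30.3 to 321 CPM for the 10 members, so these are minor transcripts of a muscle sample. The IgG libraries held the fewest genes with a count above 0, 18571 to 18940 against 19084 to 19970 in all others. Genes of the mitochondrial genome took 12.8% to 16.7% of an IgG library and 11.1% to 14.4% of an anti-PD-L1 library, against 17.6% to 23.0% in control libraries and 20.2% to 23.1% in those of anti-CD8a. The part of either in the members' values was not tested. Differences are log2 fold changes from edgeR with their standard error (SE), and a gene was called at an adjusted p under 0.05 over 14372 genes. Since nothing in the labels ties each library to its own mouse, p-values measure the spread between libraries.

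In anti-CD8a against control, 0 of 10 members were called by edgeR's quasi-likelihood test, in a comparison where 0.0139% of all genes were called, and 0 by DESeq2. In a fit of these 8 libraries alone 0 members were called, beside 0.408% of all genes. All 10 log2 fold changes were below 0, from -0.98 to -0.01, with a median of -0.40 against 0.01 over all genes tested. Marker lists of some other cells had like medians: -0.46 for lymphatic endothelium, -0.38 for fibroblasts, -0.36 for blood endothelium and -0.30 for platelets. Others did not: -0.04 for muscle fibres, 0.15 for T and B lymphocytes (2 genes tested) and 1.54 for neutrophils (5 tested). Among macrophage lists the median was -0.28 for other resident genes, 0.20 for pan-macrophage genes and 0.34 for inflammatory monocyte genes. C1qa and C1qb took the other sign in at least 1 alternative. Of the 10, 2 had an unadjusted p under 0.05, Pf4 and Cd163. Pf4 differed by -0.98 ± 0.40 (SE; edgeR adjusted p = 0.565, and 0.183 to 0.999 over the alternatives) and Cd163 by -0.85 ± 0.36 (SE; edgeR adjusted p = 0.584, and 0.111 to 0.999). Cd163 was the 1 member whose anti-CD8a libraries all lay below all control libraries, which 4.38% of all genes did. C1qa had nearly the same mean in both groups, 12.6 ± 4.61 CPM (SD, n = 3) in anti-CD8a and 12.6 ± 2.32 CPM (SD, n = 5) in control. Missing the threshold does not show that these groups are alike, since the SE of a member was 0.25 to 0.47.

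**Figure D1:**
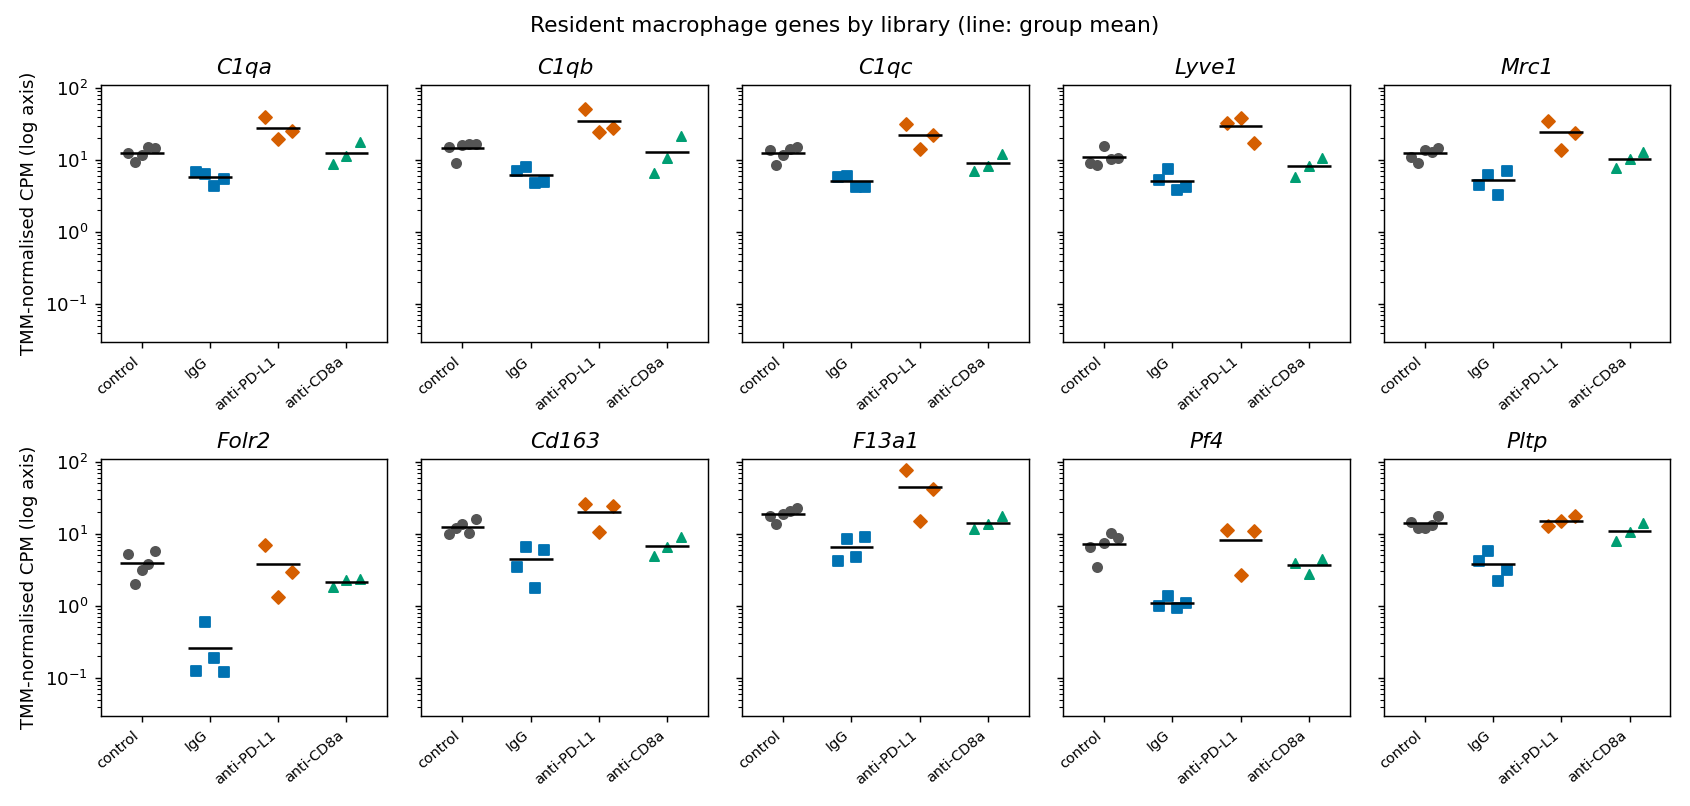
Level of each of the 10 genes in TMM-normalised CPM (log axis) in 15 libraries, grouped by treatment; each point is a library and each line a group mean. The IgG libraries lie below all control libraries for each of the 10 genes, and Folr2 goes down to 0.122 CPM.

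The 3 genes of complement C1q code for the A, B and C chains of the protein that starts the classical complement pathway, and macrophages are its main source. C1qb was at 14.9, 9.14, 16.2, 16.8 and 16.4 CPM in control and at 6.95, 8.01, 4.79 and 5.01 CPM in IgG. It was at 50.5, 24.7 and 27.4 CPM in anti-PD-L1 and at 6.70, 10.8 and 21.3 CPM in anti-CD8a. The anti-PD-L1 libraries were higher than all others, the IgG libraries were below all control libraries, and anti-CD8a spanned the range from IgG to above control. The log2 fold change of C1qb was -1.25 ± 0.32 (SE) in IgG against control, 1.22 ± 0.31 in anti-PD-L1 against control and -0.18 ± 0.33 in anti-CD8a against control. C1qa ranged over 9.25 to 14.9 CPM in control and over 4.41 to 6.70 CPM in IgG. It ranged over 19.3 to 39.2 CPM in anti-PD-L1 and, in anti-CD8a, over 8.72 to 17.7 CPM. C1qc ranged over 8.55 to 15.02, 4.16 to 5.90, 14.1 to 31.2 and 7.14 to 11.9 CPM in the same order. The lowest anti-PD-L1 library thus lay inside the control range for C1qc, and above it for C1qa and C1qb.

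The proportion between the chains was compared in TPM, which takes transcript length into account. C1qa was 0.768 to 1.38 times C1qb over the 15 libraries and C1qc was 0.497 to 0.942 times C1qb. The ratio of C1qa to C1qc had a median of 1.18 in control, 1.33 in IgG, 1.5 in anti-PD-L1 and 1.65 in anti-CD8a. Its lowest anti-CD8a value, 1.46, was above the highest control value, 1.28, and so was its lowest anti-PD-L1 value, 1.32. The lowest IgG value, 1.27, was not. These differences were seen among several ratios and were not tested.

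Among the uptake receptors, Mrc1 codes for the mannose receptor CD206, Cd163 for the scavenger receptor of haemoglobin bound to haptoglobin, Lyve1 for a hyaluronan receptor and Folr2 for folate receptor beta. Mrc1 ranged over 9.08 to 14.7 CPM in control, over 3.21 to 7.09 CPM in IgG, over 13.7 to 35.3 CPM in anti-PD-L1 and, in anti-CD8a, over 7.84 to 13.1 CPM. Cd163 was at 9.76, 12.1, 13.6, 10.2 and 15.8 CPM in control, at 3.48, 6.56, 1.76 and 5.92 CPM in IgG, at 25.9, 10.7 and 24.4 CPM in anti-PD-L1, and at 4.85, 6.60 and 9.01 CPM in anti-CD8a. For Cd163 the anti-CD8a libraries thus overlapped with IgG and not with control, while for Mrc1 they overlapped with control and not with IgG. Cd163 in anti-PD-L1 overlapped with control through replicate 2 only.

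Lyve1 differed from the other receptors in which anti-PD-L1 library was highest. It was at 9.20, 8.49, 15.8, 10.2 and 10.7 CPM in control and at 5.34, 7.40, 3.84 and 4.15 CPM in IgG. It was at 32.5, 37.8 and 17.3 CPM in anti-PD-L1 and at 5.72, 8.16 and 10.7 CPM in anti-CD8a. Anti-PD-L1 replicate 2, the lowest library of its group for 8 members, was the highest of all 15 for Lyve1. The anti-PD-L1 libraries were all above control, by 1.43 ± 0.27 (SE) on the log2 scale. Lyve1 is also expressed by lymphatic endothelium. The 8 lymphatic genes listed with it summed to 44.98 to 52.3 CPM in control and 37.0 to 49.96 CPM in IgG. Their sum was 50.4, 66.8 and 45.4 CPM in anti-PD-L1, in the order of replicates, and between 32.7 and 45.04 CPM in anti-CD8a. Anti-PD-L1 replicate 2 was thus highest of all 15 for this sum too, and Lyve1 and the sum ranked the anti-PD-L1 libraries alike. In control, IgG and anti-CD8a, Lyve1 and the sum of these 8 genes did not rank the libraries in the same order. Of these 8 only Mmrn1, a matrix protein of lymphatic vessels, was called in anti-PD-L1 against control (34.7% of all genes were), higher by 1.38 ± 0.39 (SE). The part of lymphatic vessels in the Lyve1 values was not tested.

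Folr2 was the lowest of the 10 in IgG. Its raw counts there were 2, 10, 3 and 2, or 0.124, 0.602, 0.189 and 0.122 CPM, so that 3 of the 4 libraries held at most 3 counts. It was at 5.16, 2.004, 3.16, 3.79 and 5.80 CPM in control, at 6.96, 1.33 and 2.95 CPM in anti-PD-L1, and at 1.80, 2.25 and 2.38 CPM in anti-CD8a. The IgG libraries did not overlap with any other group, and the other 3 groups overlapped with each other. The ratio of normalised counts was 0.0639 in IgG to control (95% counting interval 0.0369 to 0.104) and 13.9 in anti-PD-L1 to IgG (8.51 to 24.3). These intervals cover counting error only. Without IgG replicate 2, which held 10 of the 17 counts, the log2 fold change of Folr2 went from -3.90 to -4.72 in IgG against control and from 3.80 to 4.63 in anti-PD-L1 against IgG. The latter was 3.001 without anti-PD-L1 replicate 1. Folr2 was also the 1 member whose mean was highest in control rather than in anti-PD-L1, at 3.98 ± 1.52 CPM (SD, n = 5) against 3.74 ± 2.90 CPM (SD, n = 3).

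**Figure D2:**
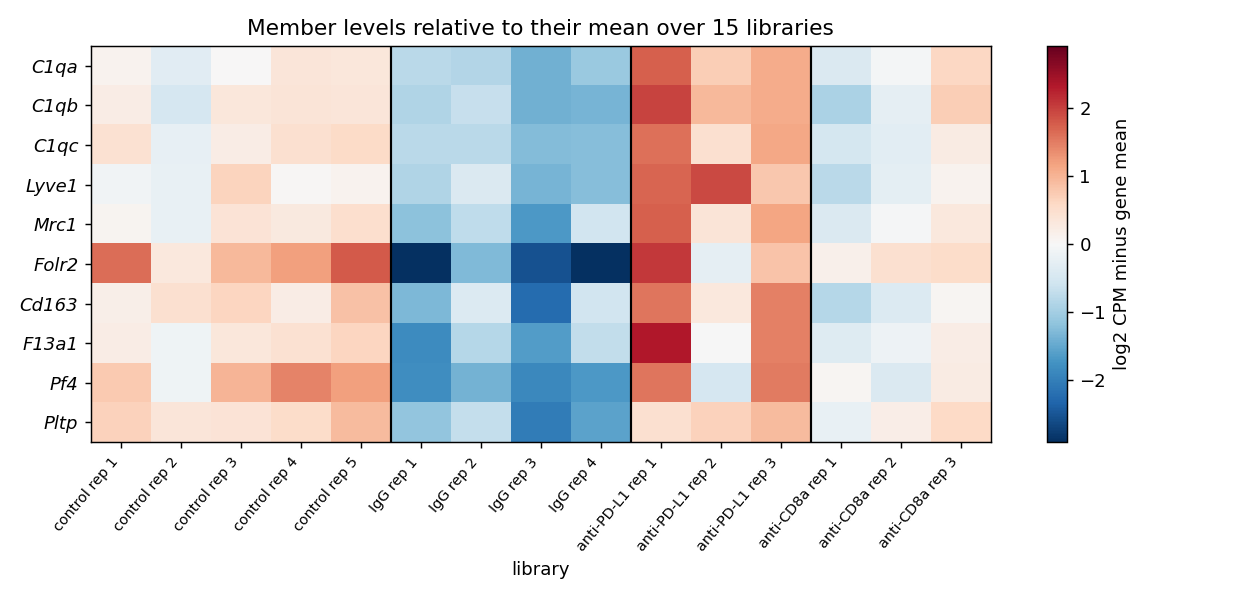
Log2 CPM of each gene minus that gene's mean over 15 libraries (colour; rows are genes, columns are libraries, black lines separate the groups). IgG replicate 3 is lowest of 15 for 8 genes, anti-PD-L1 replicate 1 is highest of 15 for 8 genes, and Lyve1 is highest in anti-PD-L1 replicate 2.

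The secreted and intracellular products were F13a1, the A subunit of coagulation factor XIII, which cross-links fibrin; Pf4, the chemokine CXCL4; and Pltp, the phospholipid transfer protein, a target of the sterol receptor LXR. F13a1 was at 17.4, 13.7, 18.9, 20.4 and 23.0 CPM in control and at 4.16, 8.37, 4.79 and 9.04 CPM in IgG. It was at 75.7, 14.9 and 41.4 CPM in anti-PD-L1 and at 11.5, 13.5 and 17.5 CPM in anti-CD8a. In anti-PD-L1 the highest library was thus about as far above the group mean, 44.0 ± 30.5 CPM (SD, n = 3), as the lowest was below it, and that lowest library lay within the control range. Anti-PD-L1 differed from control by 1.23 ± 0.36 (SE) in log2, and anti-CD8a by -0.40 ± 0.38. Without anti-PD-L1 replicate 1 the former was 0.59 (edgeR adjusted p = 0.198, against 0.0149 with all libraries).

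Pf4 was at 6.45, 3.42, 7.53, 10.4 and 8.74 CPM in control and at 0.993, 1.38, 0.945 and 1.10 CPM in IgG. It was at 11.2, 2.66 and 10.9 CPM in anti-PD-L1 and at 3.92, 2.79 and 4.41 CPM in anti-CD8a. The IgG libraries were the tightest group, below all other libraries, and anti-PD-L1 replicate 2 lay below all control libraries while replicates 1 and 3 lay above them. The log2 fold change was -2.72 ± 0.42 (SE) in IgG against control and 0.17 ± 0.38 in anti-PD-L1 against control. Platelets also carry Pf4 and F13a1. Their 10 listed genes summed to 3.72 to 7.53 CPM over all libraries, 7 of them were below the filter, and the defining gene Ppbp was at 0 to 0.611 CPM. The part of platelets in the Pf4 and F13a1 values was not tested.

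Pltp was at 14.7, 11.8, 12.2, 13.4 and 17.6 CPM in control and at 4.16, 5.72, 2.21 and 3.12 CPM in IgG. It was at 12.8, 14.8 and 17.7 CPM in anti-PD-L1 and at 7.95, 10.6 and 14.0 CPM in anti-CD8a. Anti-PD-L1 lay almost wholly within the range of control, with a difference of 0.11 ± 0.24 (SE) in log2 (-0.032 with upper-quartile normalization), and the SD of its 3 libraries was 2.44 CPM. Of the 9 tested genes of cholesterol efflux and LXR listed with Pltp, 5 were called higher and 0 lower in IgG against control, where the log2 fold change of Pltp itself was -1.87 ± 0.24 (SE). Among them, Nr1h2, which codes for LXR beta, was higher by 0.92 ± 0.16 (SE) and Lpcat3, a phospholipid-remodelling enzyme, by 0.92 ± 0.14. That count was 2 with upper-quartile normalization or without IgG replicate 4, and 3 without control replicate 4. Over all 14372 genes, 4335 were called higher and 4075 lower in IgG against control.

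Levels of different genes can be compared in TPM. In control muscle Pf4 was the highest member at 18.4 ± 7.13 TPM (SD, n = 5), followed by C1qb at 15.1 ± 3.96, C1qa at 13.7 ± 3.46 and C1qc at 11.6 ± 2.996 TPM. The spreads of these 4 neighbours overlapped. Pltp followed at 8.15 ± 2.07 TPM, and F13a1, Folr2, Lyve1, Cd163 and Mrc1 had means of 2.97 to 4.6 TPM. In IgG, Pf4 was at 3.51 ± 1.53 TPM (SD, n = 4), below the 3 C1q chains at 5.31 to 7.35 TPM.

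Set against the background of all genes, the members were called as follows. In IgG against control 10 of 10 were lower, where 28.4% of all genes were called lower; the median log2 fold change was -1.40 against -0.02 over all genes. In anti-CD8a against IgG 8 of 10 were called higher (23.2% of all genes), all but Lyve1 and Cd163, with a median of 1.08. The count was 4 without anti-CD8a replicate 3, the library that was highest of its group for all 10 members. Without it, calls over all genes in either direction went from 48% to 40.2%. In anti-PD-L1 against control 6 of 10 were called higher (20.8% of all genes), namely the C1q chains, Lyve1, Mrc1 and F13a1, with a median of 0.90. The count was 2, C1qa and Lyve1, without anti-PD-L1 replicate 1, where calls over all genes in either direction went from 34.7% to 28.2%. In anti-PD-L1 against anti-CD8a 7 of 10 were called higher (12.1% of all genes), all but Folr2, Pf4 and Pltp. The count was 3 without anti-PD-L1 replicate 1 or anti-CD8a replicate 2, 2 without anti-CD8a replicate 1, and 3 in a fit of these groups alone. Over all genes, calls in either direction fell as well, from 19.7% to 16.8%, 8.93%, 8.52% and 12.6% in the same order. In anti-PD-L1 against IgG, which chose the members, 10 of 10 were called higher, beside 3.96% of all genes, and nothing is read from that count. The last 5 comparisons named share the IgG or the anti-PD-L1 libraries with the choice of members, and they share groups with one another.

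**Figure D3:**
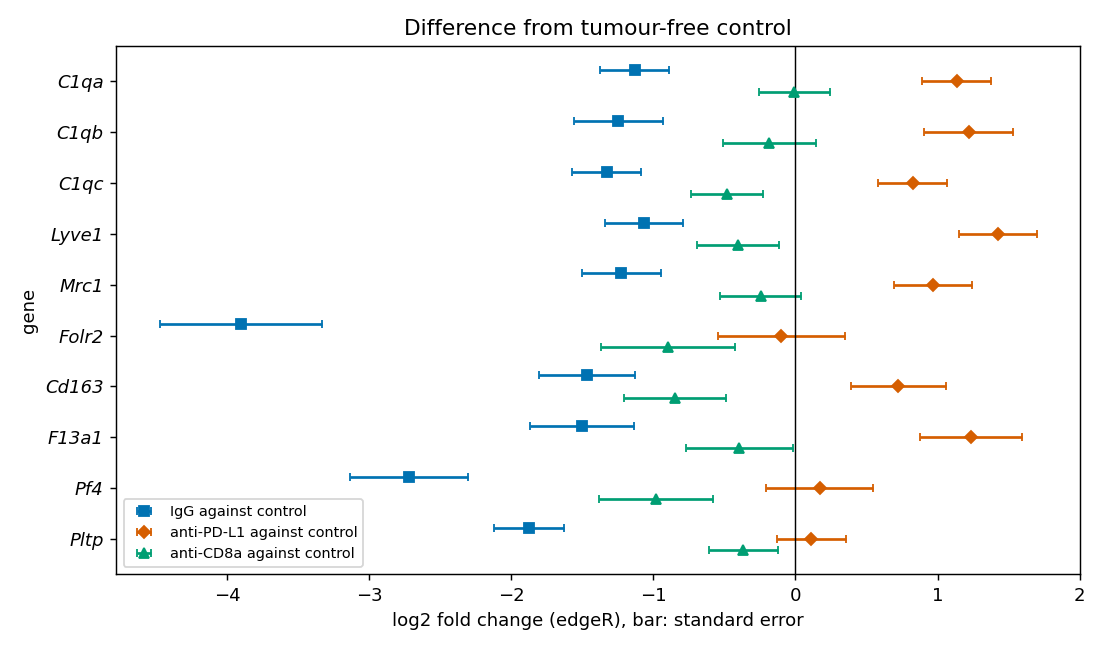
Log2 fold change against control (edgeR; bars are standard errors) of each of the 10 genes in IgG, anti-PD-L1 and anti-CD8a. IgG lies between -3.90 and -1.06, anti-CD8a between -0.98 and -0.01, and anti-PD-L1 between -0.10 (Folr2) and 1.43 (Lyve1).

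By group means, the order was anti-PD-L1, control, anti-CD8a and IgG for 9 members. Ranges were compared next. In IgG 10 of 10 members lay wholly below control (23.4% of all genes did), and in anti-CD8a 7 lay wholly above IgG (23.1%). In anti-PD-L1 3 lay wholly above control (21.0%), namely C1qa, C1qb and Lyve1, and 6 wholly above anti-CD8a (21.7%). Control and anti-CD8a overlapped for 9 of 10 members, in a comparison where 5.18% of all genes lay wholly above and 4.38% wholly below.

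The next question was whether general macrophage genes showed the same levels. The 16 pan-macrophage genes, which include Csf1r, Adgre1 and Cd68, summed to 78.7 to 143 CPM in control and 62.4 to 100 CPM in IgG. The sum was between 170 and 546 CPM in anti-PD-L1 and, in anti-CD8a, between 59.8 and 226 CPM. The sum of the 10 members was 0.997 to 1.27 times that sum in control and 0.431 to 0.711 times that sum in IgG. The ratio was between 0.589 and 0.904 in anti-PD-L1 and, in anti-CD8a, between 0.538 and 1.11. In each IgG and each anti-PD-L1 library the members were thus lower relative to this sum than in every control library. The sum is weighted towards its highest genes: Lyz2 was 63.8 of a mean of 112 CPM in control and 30.1 of 78.2 CPM in IgG. Cd68 was at 2.81 CPM in control and 21.3 CPM in IgG. Among other genes of the sum, Csf1r fell from 13.5 to 5.72 CPM and Adgre1 from 3.19 to 0.797 CPM, as the members did. Mertk did not, at 3.33 CPM in control and 3.72 CPM in IgG, nor did Cd14, at 1.91 and 2.39 CPM.

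**Figure D4:**
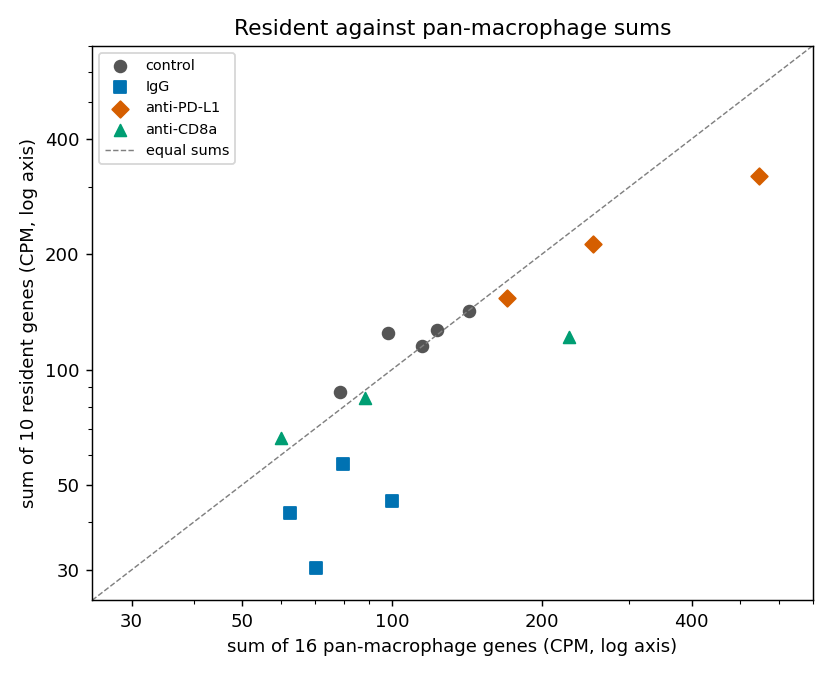
Sum of the 10 resident genes against the sum of the 16 pan-macrophage genes in each library (CPM, both axes log; the dashed line marks equal sums). Control libraries lie close to the line or above it, IgG and anti-PD-L1 libraries below it, and the highest point is anti-PD-L1 replicate 1 at 321 against 546 CPM.

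Cd68, a lysosomal membrane protein of macrophages, was the 1 pan-macrophage gene called higher in IgG against control. It ranged over 2.12 to 3.62 CPM in control and over 5.12 to 37.0 CPM in IgG. In IgG against control it was higher by 2.92 ± 0.51 (SE) in log2, while Aif1, an actin-binding protein of macrophages, was lower by -3.40 ± 0.77 and Adgre1, the F4/80 antigen, by -1.996 ± 0.46. The Aif1 value rests on few counts. Aif1 was at 0 to 0.0630 CPM in IgG, where 3 counts make 0.181 to 0.189 CPM, and at 0.173 to 0.624 CPM in control. Of 13 tested pan-macrophage genes 7 were called lower (28.4% of all genes), Cd68 alone was called higher, and 5 were not called. These 8 calls became 4 or 5 on leaving out control replicate 1, 4 or 5 or any IgG library but replicate 2. In anti-PD-L1 against control 9 of 13 were higher (20.8% of all genes) and 0 lower, or 5 without anti-PD-L1 replicate 1.

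Another 20 genes of resident macrophages were listed with the members, of which 19 were tested. In IgG against control 10 were lower (28.4% of all genes) and 0 higher, with a median of -1.11 against -0.02 over all genes. Timd4, a receptor for dying cells, was at 0.611 ± 0.239 CPM (SD, n = 5) in control and 0.0609 ± 0.0864 CPM (SD, n = 4) in IgG, and Fcrls, an Fc receptor-like scavenger protein, at 3.18 ± 1.10 and 0.274 ± 0.279 CPM. In anti-CD8a against IgG 9 were higher (23.2% of all genes) and 0 lower, with Fcrls at 4.20 ± 3.88 CPM (SD, n = 3) in anti-CD8a. In anti-PD-L1 against control 4 of the 19 were higher, where 20.8% of all genes were, and 2 lower. The higher ones included Vsig4, a complement receptor, by 3.70 ± 0.91 (SE) and Fcna, a ficolin that binds microbial sugars, by 1.61 ± 0.33. Vsig4 was at only 0 to 0.280 CPM in control, where 3 counts make 0.134 to 0.177 CPM. The 2 lower genes were not among the 3 of largest change. In anti-PD-L1 against IgG 10 were higher (3.96% of all genes) and 0 lower. That count was 3 on leaving out IgG replicate 1, 3 or 4 or the third anti-PD-L1 library, 4 on leaving out the first, 16 without both replicates 2, and 0 in a fit of these groups alone. Calls over all genes in either direction moved likewise, from 5.5% to between 1% and 2.18% without any 1 of these libraries. They were 28.8% without both replicates 2 and 0.276% in that fit.

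C1q works with other complement proteins, and 13 of 14 genes listed for the classical pathway beside the C1q chains were tested. The list also holds C1qbp, Calr, Lrp1, Cd93, Itgax, C3ar1 and C5ar1, so its counts are not of pathway components alone. In IgG against control 4 were lower and 2 higher, where 4075 of all 14372 genes were lower and 4335 higher. C1s1, a protease of the C1 complex, was lower by -1.36 ± 0.22 (SE), as C1q was, and C4b, which the C1 complex cleaves, was higher by 1.92 ± 0.30. In anti-PD-L1 against control 7 were higher (20.8% of all genes) and 0 lower, among them C4b by 2.85 ± 0.32 (SE) and C3, the central complement protein, by 1.51 ± 0.26. In levels, C4b went from 4.97 ± 1.87 CPM (SD, n = 5) in control to 18.7 ± 7.65 CPM (SD, n = 4) in IgG and 35.8 ± 8.74 CPM (SD, n = 3) in anti-PD-L1, so that IgG stood above control for C4b and below it for C1q.

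Of 11 tested genes for macrophage growth and recruitment, 4 were higher and 2 lower in IgG against control. Over all 14372 genes, 4335 were called higher in that comparison and 4075 lower. The 2 lower genes, named after their values were seen, were Csf1, at 8.34 ± 1.59 CPM (SD, n = 5) in control and 4.89 ± 0.829 CPM (SD, n = 4) in IgG, and Il34, at 3.84 ± 0.473 and 1.95 ± 0.787 CPM. They code for the ligands of CSF1R. Csf2rb, a receptor chain for GM-CSF, was the gene of largest rise at 2.45 ± 0.45 (SE). Among genes of inflammatory monocytes 3 of 10 were higher and 3 lower in IgG against control, and 6 were higher and 1 lower in anti-PD-L1 against control. Of all genes, 58.5% were called in IgG against control, and 20.8% were called higher in anti-PD-L1 against control. Chil3, a secreted chitinase-like protein, was at 0.105 ± 0.144 CPM (SD, n = 5) in control, 2.23 ± 1.91 CPM (SD, n = 4) in IgG and 13.2 ± 11.7 CPM (SD, n = 3) in anti-PD-L1.

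Fibroblast genes moved with the members in part. Of 10 tested, 9 were lower (28.4% of all genes) and 0 higher in IgG against control. In anti-CD8a against IgG 8 were higher (23.2% of all genes) and 0 lower. Their sum was 1161 to 1607 CPM in control and 584 to 811 CPM in IgG. It was between 1132 and 1544 CPM in anti-PD-L1 and, in anti-CD8a, between 965 and 1077 CPM. In anti-PD-L1 against control 4 were lower (1999 of all 14372 genes) and 1 higher, with Col3a1, a collagen chain, at -3.66 ± 0.51 (SE), where no member was called lower. These 5 calls became 8 without anti-PD-L1 replicate 3. The part of connective tissue in the members' values was not tested. Neutrophil genes, 10 listed, summed to 0.531 to 4.72 CPM in control, 3.85 to 11.1 CPM in IgG, 13.2 to 60.4 CPM in anti-PD-L1 and 2.83 to 9.80 CPM in anti-CD8a. Of 5 tested, 4 were called higher in IgG against control (2 without IgG replicate 2) and 5 in anti-PD-L1 against control. Over all 14372 genes, 4335 and 2989 were called higher in these 2 comparisons. The part of neutrophils was not tested either. In the 15 lists beside the members, 0 of 134 tested genes were called by edgeR in anti-CD8a against control, 16 had an unadjusted p under 0.05, and DESeq2 called 1, a fibroblast gene.

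Genes with a pattern like that of the members were sought among 11451 genes with a mean of at least 1 CPM, by the mean absolute difference from the members' average centred log2 CPM over 15 libraries. Among the 5 nearest were Lcp1, the actin bundler of leukocytes (0.236), Csf1r, the growth factor receptor of macrophages (0.239), Adgre1 (0.268) and Fn1, fibronectin (0.287). The median over all these genes was 0.811. The members themselves lay at 0.153 (C1qc) to 0.728 (Folr2), although the average includes them. Csf1r was at 13.5 ± 3.45 CPM (SD, n = 5) in control, 5.72 ± 1.32 CPM (SD, n = 4) in IgG, 23.0 ± 9.07 CPM (SD, n = 3) in anti-PD-L1 and 9.70 ± 4.18 CPM (SD, n = 3) in anti-CD8a, the same order of group means as for 9 members.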

How the data were processed

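Total RNA of 15 muscle libraries was analysed (control n = 5, IgG n = 4, anti-PD-L1 n = 3, anti-CD8a n = 3; groups from the labels). The authors trimmed reads with Trim Galore, aligned them with STAR 2.7.9a and counted them with RSEM 1.3.3, per the submitters' processing notes; the build, annotation and strand setting are not given in the sources used here. The deposited files hold, per the file headers, RSEM expected counts, which were rounded to whole numbers, and TPM, which were used only to compare genes within a library. Reads shared by overlapping or similar genes may have been divided between them.

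One model of all 4 groups was fitted with edgeR 4.0.16 in R 4.3.3 (limma 3.58.1), with TMM normalization, filterByExpr and the quasi-likelihood test, with Benjamini-Hochberg adjustment over 14372 genes and a threshold of 0.05. The SE was taken from the fold change and the root of its F statistic. Intervals of count ratios are at 95%, and log2 CPM used a prior count of 2. DESeq2 1.42.0, other normalizations, no filter, fits of the compared groups alone, a replicate block and leaving out libraries were the alternatives. The model was tested on simulated data.

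The members and 15 other gene lists were chosen with earlier results of these data known. Named were all members, up to 3 called genes of largest change per list and comparison, markers of other cell types, and the 5 genes of nearest pattern, of which 1 is not reported here.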

Additional observations from a re-analysis of the deposited data

Results flagged for a closer look

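Within groups of 4 or 5 libraries, a library was looked for whose gap to the nearest other exceeded the 95% critical value of Dixon's test, and 2 of 20 cases were found, where chance gives about 1 in 20. C1qb in control replicate 2, at 9.14 CPM, lay below the other control libraries, which were at 14.9 to 16.8 CPM. This library was also the lowest of control for 9 of the 10 members. Folr2 in IgG replicate 2, at 0.602 CPM or 10 counts, lay above the other IgG libraries, which held 2 or 3 counts. IgG replicate 2 was the highest of its group for 7 members.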

How the results depend on the processing

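The counts of members called were within 1.5 times the reported count in all alternatives except those given here. Without 1 library, the count was 4 to 9 in anti-CD8a against IgG, 2 to 7 in anti-PD-L1 against control and 2 to 8 in anti-PD-L1 against anti-CD8a, which was 3 in a fit of only these groups. In IgG against control it was 10, and in anti-CD8a against control 0, under all alternatives. Among members not called, log2 fold changes near 0 changed sign. In anti-CD8a against control, C1qa was 0.12 with the replicate block, and without 1 library it was -0.32 to 0.20 and C1qb -0.74 to 0.13. In anti-PD-L1 against control, Folr2 was 0.31 without IgG and anti-PD-L1 replicate 2 and Pltp -0.032 with upper-quartile normalization. Without 1 library, Folr2 there was -0.90 to 0.31, Pf4 -0.11 to 0.60 and Pltp -0.016 to 0.22. Folr2 in anti-PD-L1 against anti-CD8a was -0.0049 to 1.204 without 1 library. The cause was not tested. Replicate numbers did not pair the libraries: 3 of 19 same-numbered pairs had a correlation over 0.1 (range -0.345 to 0.180). With the replicate block 7 members were called in anti-CD8a against IgG and 9 in anti-PD-L1 against IgG. Over all genes, 2 were called in anti-CD8a against control, and 0 to 68 in the alternatives (68 by DESeq2). In anti-PD-L1 against IgG 791 genes were called, with 37 in a fit of only these groups, 1807 by DESeq2 and 4215 without IgG and anti-PD-L1 replicate 2. These libraries were doubted because in earlier results of these data each lay closest of its group to the other group in overall expression, so leaving out both widens that difference by construction; leaving out either alone gave 2604 (IgG) and 2712. In anti-PD-L1 against anti-CD8a 2836 were called, and 1226 without anti-PD-L1 replicate 2; against control 4988 were called, and 3013 without it. Depth limits Folr2 in IgG, at 17 counts in all.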
